A study of Mus musculus with 4 samples.

Results

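Effector CD8 T cells were examined in the spleens of BALB/c mice bearing BCL1, a transplantable mouse B cell lymphoma, by Drop-seq. This method captures single cells in droplets with barcoded beads and counts each captured mRNA molecule by its unique molecular identifier (UMI). A cell was taken as an effector CD8 T cell when 300 to 3000 genes were detected in it and it held at least 1 UMI of Cd8a or Cd8b1, at least 1 UMI of Cd3d, Cd3e, Cd3g or Trac and no UMI of Cd4. It also had to hold UMIs of at least 2 of 8 effector genes, namely Gzmk, Gzmb, Nkg7, Ccl3, Ccl4, Ccl5, Pdcd1 and Eomes. The members were thus chosen by their UMIs of these genes, and the rule found 96 cells among the 1770 cells with 300 to 3000 genes. Of these 96 cells, 42 came from the combination library, 10 from the anti-CD20 library, 41 from the anti-CD27 library and 3 from the isotype control library.

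All mice received 10000 BCL1 cells on day 0, and all spleens were taken on day 13 and digested with Liberase. The combination mice received anti-CD20, an antibody to a surface protein of normal and malignant B cells, on day 4, and anti-CD27, an agonist antibody to a costimulatory receptor of T and NK cells, on days 5 to 8. The anti-CD20 mice received only the day 4 antibody, the anti-CD27 mice only that of days 5 to 8, and the isotype control mice an isotype control. Each treatment was 1 library, and how many mice it held is not given in the sources used here, so treatment and library cannot be told apart and no test between treatments was possible. Intervals on shares and levels cover counting error only. The control cells are headed PBS in the count table and were taken as the isotype control, the only control sample of the study.

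CD8 T cells recognize peptides on MHC class I molecules. Naive CD8 T cells circulate through lymphoid organs with the help of homing receptors such as CCR7. After activation they divide, lose these receptors, and acquire granules with granzymes and perforin, chemokines of the CCL3, CCL4 and CCL5 group, and interferon gamma, while CD27 costimulation by its ligand CD70 promotes their priming and survival.

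The 4 libraries held between 340 and 501 kept cells and between 440710 and 939565 UMIs, and no cell barcode was shared between libraries. Effector CD8 T cells held a median of 1957 UMIs, against 1347 UMIs in the 109 other CD8 T cells, which passed the same Cd8, Cd3 and Cd4 criteria with no more than 1 effector gene. The number of effector genes detected went with depth, since the median was 1181 UMIs in CD8 T cells with 2 effector genes and 5358.5 UMIs in those with 8. By library, the median of effector cells was 1754.5 UMIs in the combination, 1201 in anti-CD20, 2495 in anti-CD27 and 1226 in the isotype control, so the anti-CD27 cells were the deepest.

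The label was first set beside cell type markers, some of which the rule itself used. All 10 T cell markers were detected, with 2732 UMIs in all 96 cells and a summed level between 10954 CPM (UMIs of the summed cells scaled to a total of 1000000) in anti-CD27 and 11652 CPM in anti-CD20. Of 5 CD4 T cell markers only 1 was detected, with 4 UMIs in 2 cells, and of 8 NK cell markers 2 were detected, with 7 UMIs in 5 cells. The T cell markers include Cd3d, Cd3e, Cd3g and Trac, so a T cell marker in every member was set by the rule. The CD4 T cell markers include Cd4, of which the rule allowed no UMI. Of 5 gamma delta T cell markers 3 were detected, with 5 UMIs in 3 anti-CD27 cells. Markers of B, myeloid and erythroid cells were more widespread, since 69 of the 96 cells held UMIs of at least 2 of them, although the median cell had only 0.379% of its UMIs in markers of other types. In 2 combination cells these markers took 32.6% and 32.1% of the UMIs, made up mainly of granulocyte markers in the first and haemoglobin genes in the second, and the next highest cell stood at 1.58%. Summed granulocyte markers were accordingly 12238 CPM in combination effector cells, 482 CPM in anti-CD20, 978 CPM in anti-CD27 and 1715 CPM in the isotype control. Erythroid markers were 15588 CPM in the combination, 5464 CPM in anti-CD20, 1297 CPM in anti-CD27 and 2287 CPM in the isotype control. B cell markers held 1 UMI in the combination, 2 in anti-CD20, 89 in anti-CD27 and 0 in isotype control cells. No doublet caller was run, and the part of these markers in the results was not tested except where a value without such cells is given.

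The first question was how frequent the effector CD8 T cells were under each treatment. They made up 9.72% of the combination library (95% Clopper-Pearson interval, 7.10 to 12.9%) and 2.0% of the anti-CD20 library (0.961 to 3.64%). In the anti-CD27 library they were 8.25% of cells (5.98 to 11%), against 0.882% in the isotype control library (0.182 to 2.56%). The combination thus stood 7.73 percentage points above anti-CD20 (95% Newcombe interval, 4.78 to 11) and anti-CD27 stood 7.37 points above the isotype control (4.67 to 10.2). The combination and anti-CD27 libraries differed by 1.47 points, with an interval from -2.21 to 5.27 that included 0.

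B cell numbers enter the share of all cells, so the effector cells were also counted among CD8 T cells. They were 61.8% of 68 CD8 T cells in the combination library, against 17.5% of 57 in anti-CD20, a difference of 44.2 points (27.5 to 57.4). In the anti-CD27 library they were 62.1% of 66 CD8 T cells, against 21.4% of 14 in the isotype control, a difference of 40.7 points (11.9 to 58.2). Between combination and anti-CD27 the difference was -0.357 points (-16.4 to 15.7). When every cell was thinned to 400 UMIs before the rule was applied, the effector cells were 40.0% of 35 CD8 T cells in the combination and 11.1% of 36 in anti-CD20, a difference of 28.9 points (8.63 to 46.6). After the same thinning, 9 of 27 CD8 T cells in anti-CD27 and 1 of 10 in the isotype control met the rule, and that difference of 23.3 points had an interval from -10.4 to 43.9. Among cells with a Cd3 UMI the effector cells were 20.3% in the combination, 5.13% in anti-CD20, 25.9% in anti-CD27 and 4.41% in the isotype control.

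**Figure D1:**
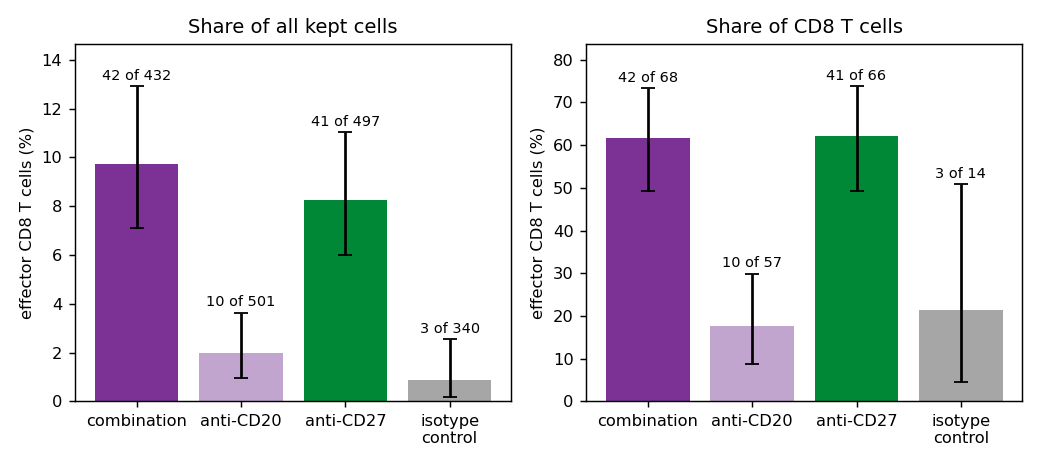
Share of effector CD8 T cells in each library, in percent of all kept cells and in percent of CD8 T cells, with 95% Clopper-Pearson intervals for counting error. The combination (9.72% of kept cells) and anti-CD27 (8.25%) stood above anti-CD20 (2.0%) and the isotype control (0.882%), and likewise among CD8 T cells (61.8% and 62.1% above 17.5% and 21.4%).

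Many cells lay close to the limit of 2 effector genes. Exactly 2 effector genes were found in 30 of the 96 effector cells, with 14 in the combination, 6 in anti-CD20, 8 in anti-CD27 and 2 in the isotype control. Just outside the rule, 60 CD8 T cells held exactly 1 effector gene, with 13 in the combination, 26 in anti-CD20, 14 in anti-CD27 and 7 in the isotype control. A further 41 cells met every criterion except for a Cd8 UMI, 5 lacked only a Cd3 UMI and 4 failed only by a Cd4 UMI.

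The 8 effector genes chose the cells, so their levels are given as a description. Nkg7, a membrane protein of cytotoxic granules, was the most widespread, with 708 UMIs in 90 of the 96 cells, and Ccl5, a chemokine for T cells and monocytes, the most abundant, with 1501 UMIs in 81 cells. Gzmb (granzyme B, a protease that triggers apoptosis of target cells) held 163 UMIs in 48 cells, and Gzmk (granzyme K, a related protease) 100 UMIs in 36 cells. Eomes, a T-box transcription factor of effector and memory cells, held 83 UMIs in 48 cells, and Pdcd1, which encodes the inhibitory receptor PD-1, 58 UMIs in 28 cells. The myeloid chemokines Ccl4 and Ccl3 were confined to fewer cells, with 242 UMIs in 27 cells and 142 UMIs in 22 cells. Ccl5 was seen in 84.4% of effector CD8 T cells against 6.48% of 602 cells with B cell markers and no Cd3 or Cd8 UMI, whose median was 1186 UMIs. Only 5 of these 602 B-marker cells came from the combination, 1 of them with Ccl5. The background of that library was thus hardly measured, here and in later B-marker values. In anti-CD20 Ccl5 was seen in 11.5% of 200 B-marker cells. Nkg7 was seen in 93.8% of effector cells against 4.65% of B-marker cells, and Gzmb in 48 of 96 effector cells against 0.166% of B-marker cells. Nkg7 was, however, also seen in 47 of the 109 other CD8 T cells (43.1%), so it was not particular to the effector cells. Among those other CD8 T cells, Ccl5 was seen in 5.50% and Gzmb in no cell. The rule limited effector genes in those cells, so these shares are partly set by it.

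The effector genes were not detected together in all cells. Gzmb and Gzmk were both found in 27 cells, Gzmb alone in 21, Gzmk alone in 9 and neither in 39. Ccl3 and Ccl4 went together in 18 cells, while 4 cells held only Ccl3 and 9 only Ccl4. Pdcd1 was found with Lag3, another inhibitory receptor, in 7 cells and without it in 21, and Eomes with Tbx21, which encodes the related factor T-bet, in 11 cells and without it in 37. A gene missing from a cell at these depths may be present below detection.

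Levels of the effector genes differed in spread between libraries. Gzmb was 738 CPM in combination effector cells, 241 CPM in anti-CD20, 652 CPM in anti-CD27 and 0 in the isotype control, where 3 cells gave only 3498 UMIs. All 3 Gzmb UMIs of the anti-CD20 library came from 1 cell. Ccl5 was 5925 CPM in the combination, 9000 CPM in anti-CD20, 6054 CPM in anti-CD27 and 572 CPM in the isotype control, and 65 of the 112 anti-CD20 UMIs came from 1 cell. Ccl4 was 965 CPM in the combination and 3697 CPM in anti-CD20, 748 CPM in anti-CD27 and 0 in the isotype control, and here 1 anti-CD20 cell held 44 of the 46 UMIs of its library. The same cell, with 1347 UMIs and no Ccl5, held 10 of the 15 Ccl3 UMIs and 35 of the 38 Xcl1 UMIs of the anti-CD20 effector cells. The high anti-CD20 levels of these chemokines thus rested on single cells. Nkg7 was the most even, with 2849 CPM in the combination, 3938 CPM in anti-CD20, 2808 CPM in anti-CD27 and 1429 CPM in the isotype control.

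**Figure D2:**
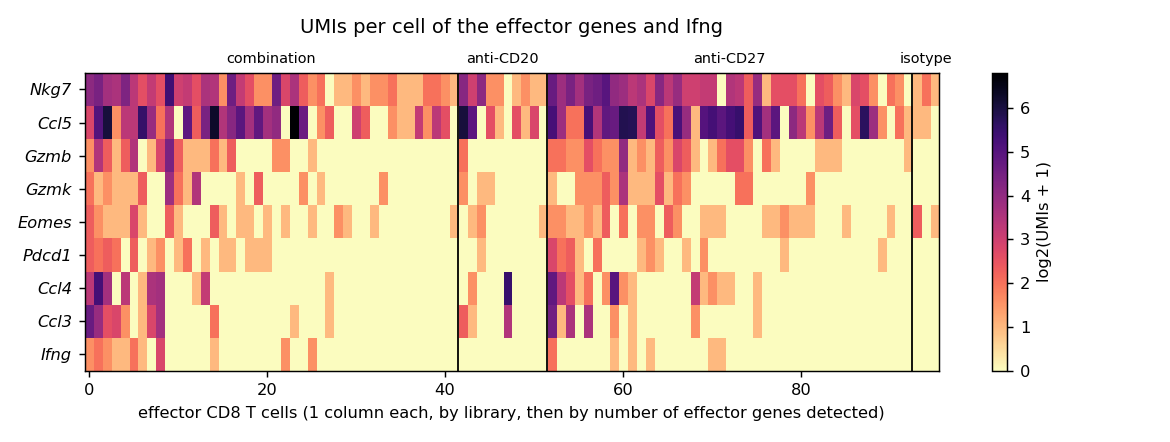
UMIs of the 8 effector genes and Ifng in each of the 96 effector CD8 T cells, as log2(UMIs + 1) on the color scale, with 1 column per cell, ordered by library and then by the number of effector genes detected. Nkg7 (90 cells) and Ccl5 (81 cells) fill most columns, and the dark Ccl4 column of anti-CD20 is the cell with 44 UMIs.

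The promoters of Gzmb, Gzmk and Nkg7, the granule genes of the rule, are shown, from 250 bases before to 50 bases after the transcription start (RefSeq, GRCm38.p6). Of 8 effector genes 6 had such a window in the RefSeq table. Capitals mark the core of T-box sites (GTGTGA, or TCACAC on the other strand), the family of Eomes and T-bet, and the core of RUNX sites (TGTGGT, or ACCACA on the other strand). The windows lie at chr14:56262285-56262584 on the minus strand for Gzmb, chr13:113180916-113181215 on the minus strand for Gzmk, and chr7:43436888-43437187 on the plus strand for Nkg7.
Gzmb: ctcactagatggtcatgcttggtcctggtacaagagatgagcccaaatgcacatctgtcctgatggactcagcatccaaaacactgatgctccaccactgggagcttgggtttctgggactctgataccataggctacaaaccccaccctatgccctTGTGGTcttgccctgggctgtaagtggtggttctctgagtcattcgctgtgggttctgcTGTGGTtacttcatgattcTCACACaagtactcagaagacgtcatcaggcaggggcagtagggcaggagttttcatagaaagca
Gzmk: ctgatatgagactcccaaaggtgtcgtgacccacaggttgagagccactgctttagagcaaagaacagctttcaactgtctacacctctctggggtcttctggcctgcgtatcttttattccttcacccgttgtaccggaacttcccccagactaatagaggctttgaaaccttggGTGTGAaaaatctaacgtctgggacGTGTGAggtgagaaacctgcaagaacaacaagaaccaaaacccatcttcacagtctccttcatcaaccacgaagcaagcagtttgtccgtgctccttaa
Nkg7: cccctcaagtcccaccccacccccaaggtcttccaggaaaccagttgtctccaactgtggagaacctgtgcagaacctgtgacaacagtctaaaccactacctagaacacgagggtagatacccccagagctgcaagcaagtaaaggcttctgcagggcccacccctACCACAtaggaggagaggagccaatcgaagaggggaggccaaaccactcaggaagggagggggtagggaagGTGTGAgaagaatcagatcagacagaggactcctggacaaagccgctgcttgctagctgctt
The T-box core was found in these 3 of the 6 windows, and in 14.5% of all 32851 promoters of the same length. The RUNX core was found in Gzmb, Nkg7 and Ccl3, and in 16.8% of all promoters. A match of 6 letters is a description of the sequence and not a binding site.

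To describe what else set the effector cells apart, their UMIs were summed per library and compared with those of the other CD8 T cells, with the library as a block (edgeR quasi-likelihood test, Benjamini-Hochberg adjusted p under 0.05). Among 2632 genes outside the rule, 30 were higher in effector cells (1.14%) and 73 were lower (2.77%), and 348 had an unadjusted p under 0.05. Of the 30 higher genes, 12 were higher in all 4 libraries and 13 in 3, and of the 73 lower genes 45 were lower in all 4. The isotype control effector sum was 3 cells with 3498 UMIs, so its direction rested on few UMIs of most genes. The p-values measure the spread between 4 libraries that differ in treatment. Without the combination library 7 genes were higher and 11 lower, and without the anti-CD27 library 8 were higher and 14 lower. With library totals in place of TMM scaling factors the split was 57 higher and 43 lower, as the median over all genes moved to 0.11, against -0.08. Without the cells with over 10% of UMIs in markers of other types, 31 genes were higher and 75 lower. Of the 103 called genes, 11 kept the call without each library in turn. On simulated sums the fit called 1 of 50 genes with a true log2 rise of 1. A gene that did not pass is thus not shown to be unchanged.

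Lgals1 and genes of the S100 and annexin families, which encode calcium-binding and cytoskeleton-linked proteins, were among the higher genes. Lgals1, which encodes galectin-1, was 2385 CPM in effector against 131 CPM in other CD8 T cells of the combination, 1205 against 244 CPM in anti-CD20, 2498 against 60.3 CPM in anti-CD27 and 1429 against 56.2 CPM in the isotype control. It was higher in effector cells in every library, with a log2 fold change of 3.48 ± 0.42 (SE, adjusted p = 1.83e-13). In the isotype control the effector level of Lgals1 came from 5 UMIs in 1 cell. S100a4 was 1344 against 105 CPM in the combination, 563 against 0 CPM in anti-CD20, 947 against 30.2 CPM in anti-CD27 and 0 in both classes of the isotype control, and its log2 fold change was 4.33 ± 0.62 (SE, adjusted p = 1.43e-09). The fitted value was -0.23 when classes were set on cells thinned to 400 UMIs, a setting with 27 effector cells in 3 libraries. S100a6 (log2 2.68 ± 0.50, adjusted p = 1.27e-05), Anxa2 (2.42 ± 0.57, adjusted p = 0.00189) and S100a10 (1.30 ± 0.37, adjusted p = 0.0206) were higher as well. Of the 21 tested genes of the cytoskeleton and S100 list, 5 rose and none fell, with a median of 0.48 against -0.08 over all genes. Lgals1 was found in 66.7% of effector CD8 T cells against 10.5% of B-marker cells, and S100a4 in 48 of 96 effector cells against 1.33% of B-marker cells. The combination held only 5 of the 602 B-marker cells. Lgals1 and S100a4 kept their call without any 1 library, whereas S100a6 lost it without anti-CD20 (adjusted p = 0.059), Anxa2 without the combination (0.11) or anti-CD27 (0.17), and S100a10 without either (0.19 each).

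Chemokine and NK-type receptors made the next group. Ccr2, a receptor that also marks monocytes, was 558 against 105 CPM in the combination, 321 against 28.7 CPM in anti-CD20, 573 against 60.3 CPM in anti-CD27 and 572 against 0 CPM in the isotype control. It was thus higher in effector cells of all libraries (log2 2.84 ± 0.60, adjusted p = 0.000217). The isotype control level of Ccr2 came from 3 effector cells with 3498 UMIs. Klrc1, the inhibitory lectin receptor NKG2A, held 46 UMIs in 27 effector cells and none in other CD8 T cells (at least 9.85-fold against a floor of 3 counts over the group, adjusted p = 0.0109). Klrc2, its activating relative, held 33 UMIs in 21 effector cells and none in the others (at least 7.06-fold, adjusted p = 0.042), and the pair is similar enough in sequence that reads may be shared. Of the 21 tested genes of the migration and effector surface list, 4 rose and none fell, with a median of 0.72. Ccr2 kept its call without any 1 library, while Klrc1 and Klrc2 had too few UMIs to be tested without the combination or anti-CD27, and Klrc2 also lost its call without anti-CD20 (adjusted p = 0.068). Cxcr6, a receptor of tissue-homing effector cells, held 33 UMIs in 16 combination cells and 33 UMIs in 20 anti-CD27 cells, with none in the effector cells of anti-CD20 or the isotype control, and did not pass (log2 1.61 ± 0.75, adjusted p = 0.289). Klrg1, a receptor of terminal effector cells, did not pass (log2 3.26 ± 1.32, adjusted p = 0.162), with 22 UMIs in 9 combination cells, none in anti-CD20, 11 UMIs in 6 anti-CD27 cells and no UMI in isotype control cells.

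Among inhibitory receptors, Havcr2 (TIM-3) held 43 UMIs in 22 effector cells and none in other CD8 T cells, at least 9.20-fold higher (adjusted p = 0.038), with 123 CPM in the combination, 239 CPM in anti-CD27 and none in anti-CD20 or the isotype control. It was not called without the combination (adjusted p = 0.53), and without anti-CD27 it had too few UMIs. Lag3, another inhibitory receptor, had too few UMIs for the test, with 4 UMIs in 3 combination cells, 12 UMIs in 9 anti-CD27 cells and no UMI in the effector cells of anti-CD20 and the isotype control. Costimulatory receptors gave no call in either direction over 7 tested genes. Cd27 itself, the target of the antibody, was 454 CPM in effector against 498 CPM in other CD8 T cells of the combination, 402 against 675 CPM in anti-CD20, 445 against 483 CPM in anti-CD27 and 572 against 618 CPM in the isotype control. These values lay close together and the difference did not pass (log2 -0.51 ± 0.41, adjusted p = 0.67). Tnfrsf9 (4-1BB), a receptor induced by T cell activation, held 22 UMIs in 10 combination cells, 1 UMI in anti-CD20, 26 UMIs in 9 anti-CD27 cells and no UMI in isotype control cells, and did not pass (adjusted p = 0.155).

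Of the cytotoxic granule list outside the rule, 2 of 10 tested genes rose and none fell. Gzma (granzyme A) was 663 against 52.4 CPM in the combination, 0 against 57.4 CPM in anti-CD20, 326 against 30.2 CPM in anti-CD27 and 0 against 56.2 CPM in the isotype control (log2 2.25 ± 0.66, adjusted p = 0.0249). It was higher only in the libraries with anti-CD27, and the 10 and 3 effector cells of the other libraries held no UMI. In the combination 10 effector cells held Gzma, and 30 of its 70 UMIs came from 1 cell. Cst7, an inhibitor of granule proteases, was 416 against 52.4 CPM in the combination, 241 against 86.1 CPM in anti-CD20, 286 against 121 CPM in anti-CD27 and 858 against 56.2 CPM in the isotype control, higher in all 4 (log2 1.83 ± 0.59, adjusted p = 0.0496). The isotype control level of Cst7 came from 3 effector cells with 3498 UMIs. Without the combination the adjusted p was 0.92 for Gzma and 0.63 for Cst7, and without anti-CD27 it was 0.44 for Gzma and 0.19 for Cst7, while Cst7 also lost its call without the isotype control (0.078). Prf1 (perforin) did not pass (log2 0.62 ± 0.78, adjusted p = 0.835), at 132 CPM in combination, 80.4 CPM in anti-CD20, 151 CPM in anti-CD27 and 0 CPM in isotype control effector cells. Ifng held 24 UMIs in 11 combination cells and 8 UMIs in 6 anti-CD27 cells, with none in anti-CD20 or isotype control effector cells and 0.166% of B-marker cells positive, and did not pass against the other CD8 T cells, which held 2 UMIs (log2 1.96 ± 1.16, adjusted p = 0.476). Xcl1, a chemokine for cross-presenting dendritic cells, was called higher (log2 3.69 ± 0.95, adjusted p = 0.00603), but 35 of its 39 UMIs came from 1 anti-CD20 cell. No UMI of Tnf was found in any effector CD8 T cell.

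Of the 12 tested genes of the transcription factor list outside the rule, 1 rose and 2 fell. Id2, which promotes effector differentiation, was 1221 against 367 CPM in the combination, 804 against 302 CPM in anti-CD20, 1154 against 392 CPM in anti-CD27 and 0 in both classes of the isotype control, and rose (log2 1.40 ± 0.42, adjusted p = 0.0323). Ctla2a, a cathepsin inhibitor, was 360 against 0 CPM in the combination, 402 against 57.4 CPM in anti-CD20, 382 against 30.2 CPM in anti-CD27 and 286 against 0 CPM in the isotype control (log2 3.41 ± 0.73, adjusted p = 0.000339). Ctla2a was thus higher in effector cells of all libraries, although the isotype control sum held only 3498 UMIs in 3 cells. Without the combination the adjusted p was 0.071 for Ctla2a and 0.35 for Id2, and without anti-CD27 it was 0.26 for Id2.

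**Figure D3:**
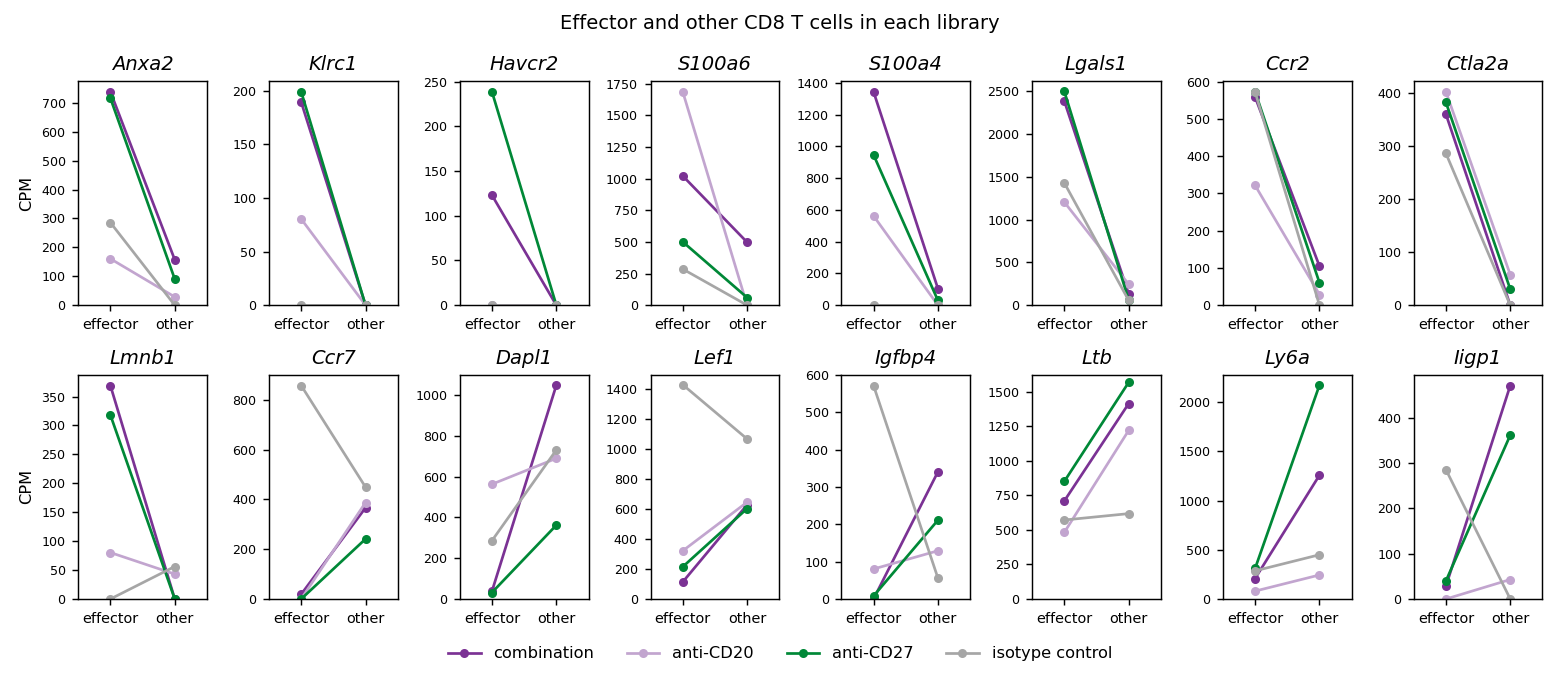
Level in CPM of 16 called genes outside the rule in effector (left point) and other CD8 T cells (right point), with 1 line per library and no error bars, since each point is 1 sum. Lgals1 was higher in effector cells on every line, at 2385 against 131 CPM in the combination, while the isotype control line of Ccr7 runs against the other 3.

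Genes of naive and memory T cells were lower in the effector cells. Of 15 tested genes of this list, 9 fell and none rose, with a median of -1.69, and no gene had a value above 0. Ccr7, the lymph node homing receptor, was 18.9 against 367 CPM in the combination, 0 against 388 CPM in anti-CD20, 0 against 241 CPM in anti-CD27 and 858 against 449 CPM in the isotype control (log2 -3.65 ± 0.70, adjusted p = 2.85e-05). It was lower in effector cells of the 3 antibody-treated libraries and higher in the 3 isotype control cells, where the level came from 3 UMIs. Dapl1 was 37.9 against 1048 CPM in the combination, 563 against 689 CPM in anti-CD20, 31.8 against 362 CPM in anti-CD27 and 286 against 730 CPM in the isotype control (log2 -2.98 ± 0.51, adjusted p = 1.13e-06). Dapl1 was lower in all 4 libraries, and closer to the other CD8 T cells in anti-CD20 than in the combination and anti-CD27. Ltb, which encodes lymphotoxin beta, was 710 against 1414 CPM in the combination, 482 against 1220 CPM in anti-CD20, 851 against 1568 CPM in anti-CD27 and 572 against 618 CPM in the isotype control (log2 -1.18 ± 0.35, adjusted p = 0.0297).

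Transcription factors of the naive state fell as well. Tcf7 (TCF-1) was 85.2 against 393 CPM in the combination, 402 against 373 CPM in anti-CD20, 55.7 against 633 CPM in anti-CD27 and 1144 against 281 CPM in the isotype control (log2 -1.82 ± 0.49, adjusted p = 0.0119). It was lower in the combination and anti-CD27 but not in anti-CD20 or the isotype control, and its fitted value was 0.04 without cycling cells. Lef1, its close relative, was 114 against 629 CPM in the combination, 321 against 646 CPM in anti-CD20, 215 against 603 CPM in anti-CD27 and 1429 against 1067 CPM in the isotype control (log2 -1.65 ± 0.43, adjusted p = 0.00666). Foxp1, a factor of T cell quiescence, had a log2 fold change of -1.90 ± 0.50 (adjusted p = 0.0091). Igfbp4 (-3.46 ± 0.86, adjusted p = 0.00389) and Actn1 (-2.60 ± 0.59, adjusted p = 0.000808) fell with them. Without the combination library none of 14 tested genes of the list was called, and without the anti-CD27 library 3 of 14 were, with medians of -1.64 and -1.44. Without the combination the adjusted p was 0.072 for Ccr7 and 0.12 for Dapl1, which were called in the absence of anti-CD27, and 0.61 for Tcf7 and 0.42 for Lef1, which were not.

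Of 34 tested interferon response genes 4 fell and none rose, with a median of -0.55 and 6 genes above 0. Ly6a (Sca-1) was 208 against 1257 CPM in the combination, 80.4 against 244 CPM in anti-CD20, 310 against 2171 CPM in anti-CD27 and 286 against 449 CPM in the isotype control, lower in every library (log2 -2.70 ± 0.44, adjusted p = 2.98e-07). Iigp1, an interferon-inducible GTPase, was 28.4 against 471 CPM in the combination, 0 against 43.1 CPM in anti-CD20, 39.8 against 362 CPM in anti-CD27 and 286 against 0 CPM in the isotype control (log2 -3.31 ± 0.75, adjusted p = 0.000808). For both genes the isotype control effector level came from 3 cells with 3498 UMIs. The level of both genes in the other CD8 T cells was highest in the combination and anti-CD27 libraries. Ly6a kept its call without any 1 library, whereas Iigp1 had too few UMIs to be tested without the combination or anti-CD27. The list median was 0.03 over 14 genes when cells with markers of other types were left out, and -0.34 with library totals in place of scaling factors.

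Other lower calls rested on few cells or on genes that B or myeloid cells also express. Cxcl9 held 44 UMIs in 2 other CD8 T cells, Stfa2l1 28 UMIs in 1 cell, and Cd74, H2-Eb1, H2-Aa and H2-Ab1, genes of MHC class II antigen presentation, as well as Lyz2 and Lst1, are known from B or myeloid cells. The source of these UMIs was not tested. A further 17 of the 73 lower genes encoded ribosomal proteins, with log2 fold changes between -1.50 and -0.77.

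Genes of the cell cycle were higher in effector cells in the combination and anti-CD27 libraries. Summed over 28 S phase genes, the level was 4638 against 1074 CPM in the combination, 1205 against 948 CPM in anti-CD20, 5235 against 1327 CPM in anti-CD27 and 2001 against 1011 CPM in the isotype control. Over 38 mitosis genes it was 8291 against 2724 CPM in the combination, 1607 against 4451 CPM in anti-CD20, 7717 against 2171 CPM in anti-CD27 and 2287 against 1629 CPM in the isotype control. The anti-CD20 library was the exception, with a lower mitosis sum in its 10 effector cells than in its 47 other CD8 T cells. In the edgeR fit 2 of 19 tested S phase genes and 2 of 23 mitosis genes rose and none fell, while all 19 and 21 of the 23 were above 0 and their medians were 1.66 and 1.44. Lig1 (DNA ligase 1) had a log2 fold change of 3.27 ± 0.88 (adjusted p = 0.0109), Hells of 2.56 ± 0.77 (adjusted p = 0.0323) and Cenpa, a histone of the centromere, of 2.46 ± 0.74 (adjusted p = 0.0324). Mki67 (Ki-67) did not pass (1.33 ± 0.49, adjusted p = 0.108), with 691 against 157 CPM in the combination, 241 against 244 CPM in anti-CD20, 764 against 121 CPM in anti-CD27 and 0 against 169 CPM in the isotype control. When classes were set on cells thinned to 400 UMIs, 4 S phase and 6 mitosis genes could be tested, with medians of 0.65 and 0.07, and the fitted value of Cenpa was -0.32. Without the combination the adjusted p was 0.57 for Lig1, 0.77 for Hells and 0.99 for Cenpa, and without anti-CD27 it was 0.37 for Lig1, 0.052 for Hells and 0.40 for Cenpa.

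**Figure D4:**
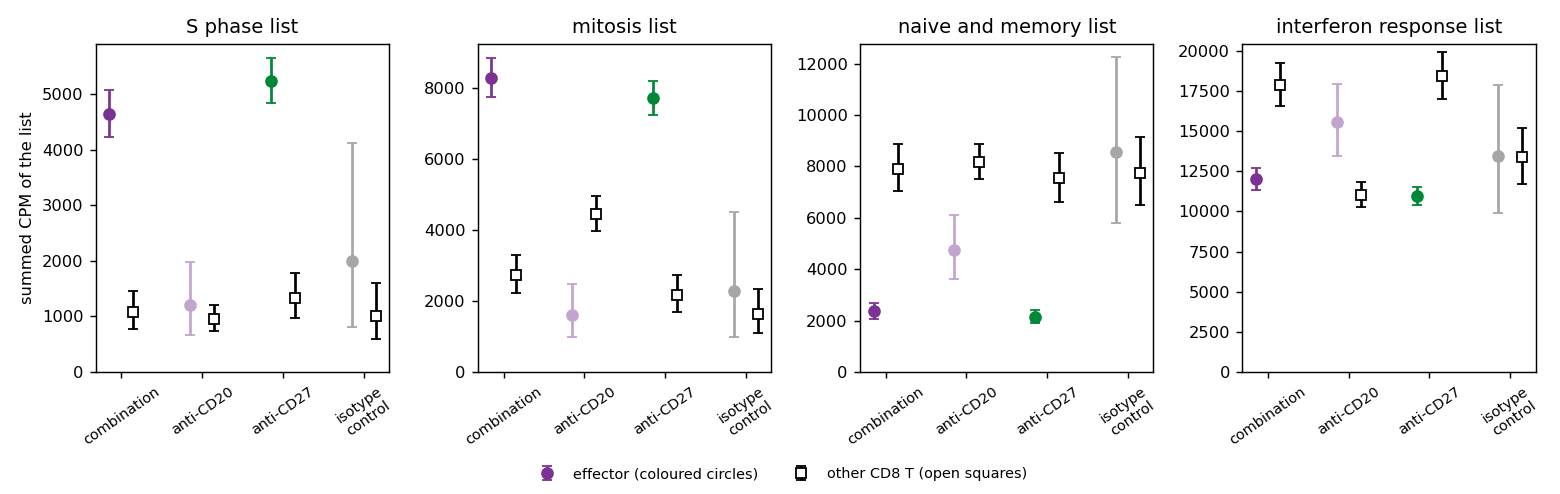
Summed CPM of the S phase, mitosis, naive and memory, and interferon response lists in effector (colored circles) and other CD8 T cells (open squares) of each library, with 95% Poisson intervals for counting error. S phase and mitosis genes were higher in effector cells of the combination (8291 against 2724 CPM for mitosis) and anti-CD27 libraries, and naive and memory genes were lower (2357 against 7911 CPM in the combination).

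Cells with UMIs of at least 3 cell cycle genes were counted as cycling. They were 28 of 42 effector cells in the combination (66.7%), 3 of 10 in anti-CD20, 35 of 41 in anti-CD27 (85.4%) and 3 of 3 in the isotype control. In other CD8 T cells of the same libraries the shares were 46.2% in the combination, 34.0% in anti-CD20, 44.0% in anti-CD27 and 45.5% in the isotype control. The combination stood 36.7 points above anti-CD20 (2.79 to 59.5) and its difference from anti-CD27 was -18.7 points (-35.7 to -0.19). Thinned to 400 UMIs, the shares were 38.1% in the combination, 1 of 10 in anti-CD20, 51.2% in anti-CD27 and 0 of 3 in the isotype control, and both differences had intervals that included 0 (28.1 points, -5.02 to 45.3, and -13.1 points, -32.7 to 7.97). With Mki67 or Top2a alone, 20 of 42 effector cells were positive in the combination, 1 of 10 in anti-CD20, 25 of 41 in anti-CD27 and 0 of 3 in the isotype control. At equal depth neither difference was thus detectable in these cell numbers.

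Cytotoxic genes were compared between cycling and other effector cells of the same library, with cycling called at 400 UMIs in each cell. In the combination, Gzmb was 952 CPM (733 to 1215) in 16 cycling cells and 364 CPM (199 to 611) in 26 other effector cells, while Ccl5 was 3331 CPM (2909 to 3797) in cycling and 10465 CPM (9467 to 11539) in other effector cells. In anti-CD27, Gzmb was 694 CPM in 21 cycling cells and 585 CPM in 20 others, and Ccl5 was 4932 CPM in cycling and 7878 CPM in other effector cells. Ccl4 was 1156 CPM (930 to 1421) in cycling and 83.6 CPM (22.8 to 214) in other anti-CD27 effector cells, and Ccl3 was 629 CPM (466 to 832) in cycling and 41.8 CPM (5.06 to 151) in other effector cells. In the combination, Ccl4 was at 1190 CPM (943 to 1481) in cycling and 573 CPM (359 to 867) in other effector cells, and Ccl3 at 863 CPM (655 to 1115) in cycling and 469 CPM (278 to 741) in other effector cells. These genes chose the cells, so the values are a description. Ccl3 was found in 6 cycling cells of anti-CD27 and 6 of the combination, and Ccl4 in 11 and 6. In anti-CD27 cycling cells, the top cell of each gene held 22 of 49 Ccl3 and 30 of 90 Ccl4 UMIs. In combination cycling cells it held 25 of 58 Ccl3 and 38 of 80 Ccl4 UMIs. Of the 402 Ccl5 UMIs in other combination effector cells, 111 came from the top cell. The intervals cover counting error only, not the spread between cells. The cycling cells were also deeper, with a median of 3814.5 UMIs against 1064 UMIs in the other effector cells of the combination, and 3701 against 2184 UMIs in anti-CD27. The part of depth in these values was not tested.

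**Figure D5:**
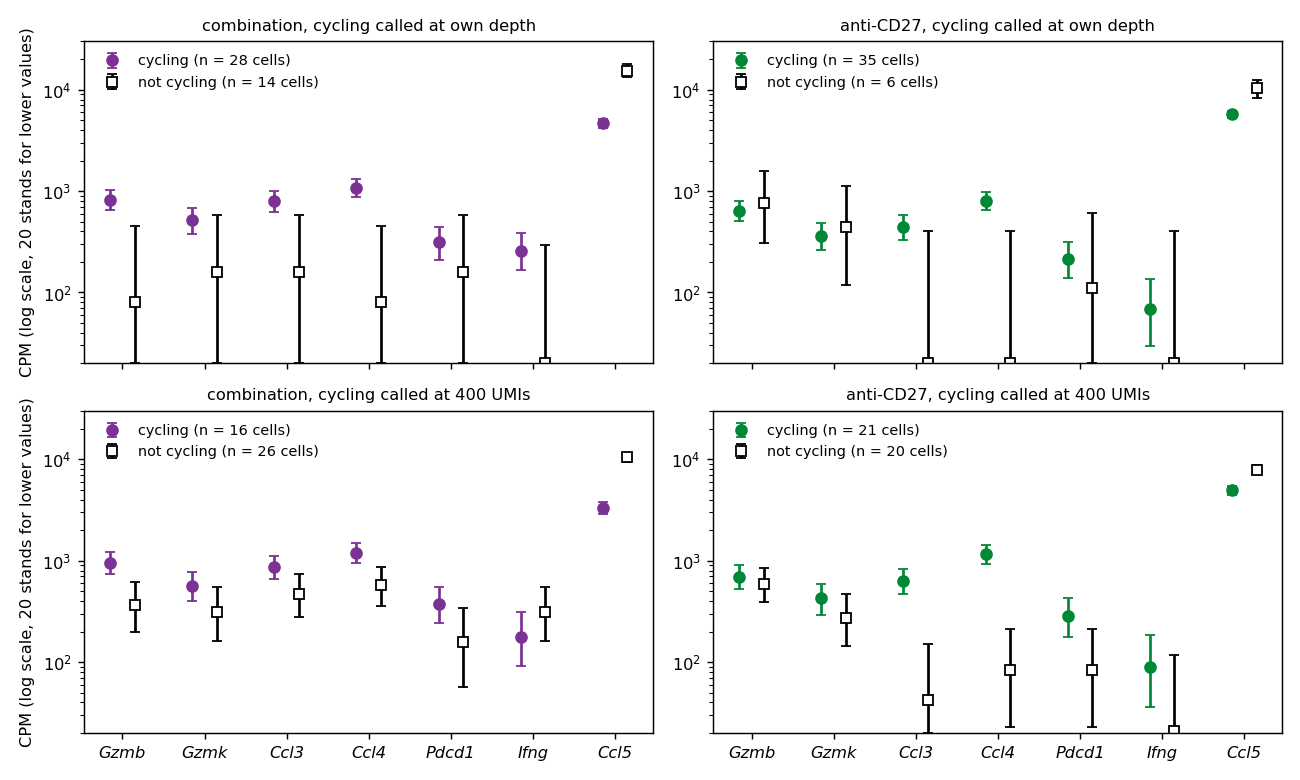
Level of 7 genes in cycling (filled circles) and other (open squares) effector CD8 T cells of the combination and anti-CD27 libraries, in CPM on a log axis with 95% Poisson intervals, with cycling called on all UMIs of a cell (top) or on 400 UMIs (bottom), and points on the lower edge standing for 20 CPM or less. Ccl5 stood at 3331 against 10465 CPM in the combination with 400 UMIs, as a description, since all of these genes but Ifng chose the cells and cycling cells were deeper (median 3814.5 against 1064 UMIs).

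The combination was then set against anti-CD20, in sums of 42 and 10 effector cells. Of 678 genes with at least 30 UMIs in the 2 sums together, 131 were at least 2-fold higher in the combination (19.3%) and 40 at least 2-fold lower (5.9%) on the log2(CPM + 50) scale, with a median of 0.11. The sums held 105658 UMIs in the combination and 12444 in anti-CD20, so genes high in the combination passed this minimum more readily. The split between higher and lower genes is thus partly set by the filter. With TMM scaling factors the split was 275 higher and 4 lower, and the median moved to 0.78. Without the 2 combination cells rich in granulocyte or erythroid markers, 120 were higher and 34 lower. Genes without an anti-CD20 UMI passed the minimum through the combination alone, so their values are a description. This holds for 5 of the 8 mitosis genes measured out of 38. Of these 8 genes 7 were past 2-fold higher, with a median of 2.93, or 1.15 when the 5 genes without an anti-CD20 UMI were set to their bound. Top2a (topoisomerase II alpha, which untangles replicated DNA) held 79 UMIs in 16 combination cells and none in anti-CD20, at least 3.10-fold higher against a floor of 3 counts in that library. Bounds for other genes without an anti-CD20 UMI were at least 2.75-fold for Gzma with 70 UMIs, 2.28-fold for Cenpa with 58 UMIs and 2.08-fold for Ube2c with 53 UMIs. Of the 70 Gzma UMIs, 30 came from 1 combination cell. With those bounds and no pseudocount, 6 of the 8 were past 2-fold. Of 6 measured S phase genes 4 were past 2-fold higher, with a median of 1.04, but with the 1 gene without an anti-CD20 UMI at its bound and no pseudocount the median was 0.53 and 1 of 6 was past 2-fold.

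The lower genes of this comparison included Ctsw, a protease of cytotoxic cells, with 341 CPM in the combination against 964 CPM in anti-CD20 (log2 -1.50, interval -2.48 to -0.42). The interferon-inducible Ifi27l2a was 719 CPM in the combination against 1848 CPM in anti-CD20 (log2 -1.36, -2.05 to -0.62), and Itgb1, an integrin, 237 CPM against 723 CPM (-1.61, -2.76 to -0.33). Dnttip2 was lower too, with 180 CPM in the combination against 1045 CPM in anti-CD20 (-2.54, -3.63 to -1.40). The medians of the naive and memory list (-0.54) and of the interferon response list (-0.28) were below 0 with library totals and above 0 with TMM factors (0.16 and 0.36), so neither has a direction free of the scaling.

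The combination was also set against anti-CD27. The sums held 105658 UMIs in the combination and 125704 UMIs in anti-CD27, against 12444 UMIs in anti-CD20, so the numbers of genes past 2-fold in this and the preceding comparison cannot be set against each other. Of 1516 genes, 23 were at least 2-fold higher in the combination (1.52%) and 26 at least 2-fold lower (1.72%), with a median of -0.05. Without the 2 cells rich in markers of other types, 16 were higher and 26 lower. No gene of the S phase and mitosis lists was past 2-fold among 18 and 19 measured, although 1 mitosis gene was with TMM factors and 3 were with no pseudocount. Dlgap5, a mitotic spindle gene outside these lists, 208 CPM (22 UMIs) in the combination against 71.6 CPM (9 UMIs) in anti-CD27 (log2 1.54, 0.36 to 2.84). Gzmb and Ccl5 are genes of the rule, and their values are a description. Gzmb was 738 CPM in the combination against 652 CPM in anti-CD27 (log2 0.18, -0.29 to 0.64), and Ccl5 5925 against 6054 CPM (-0.03, -0.19 to 0.12), both with intervals that included 0. Ifng (interferon gamma) was 227 CPM in the combination against 63.6 CPM in anti-CD27 (log2 1.84, 0.63 to 3.20), or 24 UMIs in 11 of 42 cells against 8 UMIs in 6 of 41. Jund, an AP-1 factor, was 284 CPM in 22 combination cells against 95.5 CPM in 10 anti-CD27 cells (1.57, 0.56 to 2.67), and Was, an actin regulator of leukocytes, 303 against 111 CPM (1.44, 0.50 to 2.46). Anxa1 was 265 against 55.7 CPM, with 17 of its 28 combination UMIs in 1 cell.

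Cd74, the MHC class II invariant chain, was the lowest gene of this comparison, with 66.3 CPM in the combination against 1615 CPM in anti-CD27 (log2 -4.61), and H2-Eb1, H2-Aa and H2-Ab1 were lower with it. The B cell markers held 1 UMI in combination and 89 UMIs in anti-CD27 effector cells, and their part in this result was not tested. Among genes that are not typical of B cells, Emg1, a ribosome assembly factor, was 123 CPM in the combination against 477 CPM in anti-CD27 (-1.96, -2.95 to -1.07), Serp1, a membrane protein of the secretory pathway, 104 against 398 CPM (-1.93, -3.02 to -0.97), and Ube2b, a ubiquitin-conjugating enzyme, 133 against 461 CPM (-1.80, -2.76 to -0.94). Anti-CD27 was not set against the isotype control in this way, since 3 isotype control cells were too few.

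The effector CD8 T cells were also set against all kept cells of their libraries. Gzmb, Ccl5 and Ccl4 chose the cells, so their shares are a description. The effector cells contributed 11.5% of the UMIs of the combination library, 1.32% of anti-CD20, 13.8% of anti-CD27 and 0.794% of the isotype control. Of all Gzmb UMIs they held 56.5% in the combination (78 of 138), 14.3% in anti-CD20 (3 of 21) and 70.1% in anti-CD27 (82 of 117), and in anti-CD20 18 of the 21 came from NK cells. In the isotype control they held 0 of 4 Gzmb and 2 of 98 Ccl5 UMIs. Of all Ifng UMIs they held 54.5% in the combination (24 of 44) and 34.8% in anti-CD27 (8 of 23). For Ccl5 the share was 38.1% in the combination, 112 of 934 UMIs in anti-CD20 and 61.0% in anti-CD27, and NK cells held 454 of the 1641 UMIs in the combination and 520 in anti-CD20. For Ccl4 the shares were closer, at 44.3% in the combination, 54.1% in anti-CD20 and 44.3% in anti-CD27, with the anti-CD20 value resting on the cell described above. In a sum over a library, more cells of a type and more RNA per cell cannot be told apart.

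NK cells, the other cytotoxic lymphocytes of the spleen, were the nearest comparison, with 14 cells in the combination and 24 in anti-CD20, and too few elsewhere for a test. Gzma was 663 CPM in effector CD8 T cells against 13853 CPM in NK cells of the combination, and 0 against 8825 CPM in anti-CD20. Gzmk, in the opposite order, was 473 CPM in effector CD8 T cells against 33.9 CPM in NK cells of the combination, and 321 against 0 CPM in anti-CD20. Pdcd1 was 293 CPM in effector CD8 T cells against 0 CPM in NK cells of the combination, and 80.4 against 0 CPM in anti-CD20. Ifng was 227 CPM (24 UMIs) in effector CD8 T cells against 102 CPM (3 UMIs) in NK cells of the combination, too few UMIs for an order. Gzmk and Pdcd1 are among the genes that chose the effector cells, so their order is partly set by the rule. Gzma, which the rule did not use, was higher in NK cells of both libraries, as levels in summed cells without a test. The summed cytotoxic granule list, which includes Gzma and rule genes, was higher in NK cells too. It was 22287 against 7202 CPM in effector cells of the combination, and 15428 against 6911 CPM in anti-CD20. Gzma alone gave 409 of the 658 list UMIs of combination NK cells and 274 of the 479 in anti-CD20. The sum therefore largely repeats the Gzma result. The cytokine and chemokine list was 20932 CPM in NK against 9446 CPM in effector cells of the combination. In anti-CD20 it was 19711 against 18563 CPM, with overlapping intervals. Of the 231 UMIs in that effector sum, however, 1 cell held 44 of Ccl4 and another 65 of Ccl5. The anti-CD20 effector level thus rested largely on 2 of 10 cells.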

How the data were processed

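Cells of digested spleens were profiled by Drop-seq in 4 libraries, 1 per treatment. Per the study's methods and the submitters' processing notes, the authors demultiplexed reads with bcl2fastq, removed pairs of low barcode quality, trimmed the rest, used STAR 2.5.0a and the mm10 genome for alignment, and obtained UMIs of every gene in every barcode from the Drop-seq tools. The deposited table holds raw UMI counts of 17252 genes in 3198 barcodes, with 0 columns of no sample. Treatment days follow the labels, and the study's methods give other days for this experiment. Some genes are not reported here.

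From these counts, cells with 300 to 3000 genes were kept, and classes were set by the rule given in the report. Total UMIs of kept cells were 917486 in the combination, 939565 in anti-CD20, 908930 in anti-CD27 and 440710 in the isotype control. UMIs were summed per library and class. Effector and other CD8 T cells were compared with edgeR 4.0.16 (R 4.3.3) with TMM factors, for genes with at least 30 UMIs and libraries with at least 3 cells of both classes. The fit and the intervals were tested on simulated data. The fit called 1 of 50 genes with a true log2 change of 1, 38 of 50 at 2 and 49 of 50 at 3. It called 4 of 36 genes at -1 and 2 of 2269 unchanged genes. Between libraries, ratios are given as CPM with exact Poisson and conditional intervals (scipy 1.17.1, Python 3.11.15) and called at 2-fold on log2(CPM + 50), where both libraries held at least 10 cells.

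Genes were named by rule: the effector genes, the 15 called genes with the largest and the 15 with the smallest fold change, the 10 largest and 10 smallest ratios in at least 5 cells, and list members with most UMIs. Other genes named were chosen after their values were seen. The members, gene lists and tests were chosen with earlier results of these data known. Alternatives, among them DESeq2 1.42.0, other filters, thinning to 400 UMIs and leaving out each library, are given in the closing section. Those on barcodes 1 base apart, on cells with over 10% of UMIs in markers of other types, on classes set after thinning, and without cycling cells, and the split by cycling at 400 UMIs, were chosen after seeing the data.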

Additional observations from a re-analysis of the deposited data

Results flagged for a closer look

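The effector cells of different libraries moved in opposite directions against the other CD8 T cells of the same library in 2 gene lists, and these differences were not tested, since each treatment was 1 library. The summed mitosis genes stood at a log2 ratio of effector over other CD8 T cells of 1.61 in the combination and -1.47 in anti-CD20, where the effector sum came from 10 cells. The summed interferon response genes stood at -0.574 in the combination and 0.502 in anti-CD20.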

How the results depend on the processing

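The differences in the share of effector CD8 T cells, among kept cells and among CD8 T cells, kept their sign in the alternatives run for them. For anti-CD27 and the isotype control, however, the interval included 0 without cells with markers of other types (5.18 points, -1.67 to 13.1, and 29.2 points, -12 to 57.5) and after thinning to 400 UMIs (1.53 points, -0.094 to 3.15, and 23.3 points, -10.4 to 43.9). Among kept cells, the difference between combination and anti-CD20 was 2.46 points after thinning to 400 UMIs and 15.2 points among cells with a Cd3 UMI. For anti-CD27 and the isotype control it was 21.5 points among cells with a Cd3 UMI and 10.3 points with a minimum of 500 genes. The cycling share turned to -3.57 points between combination and anti-CD20 when cells were thinned before the rule (-50.6 to 29.6), and was -50.0 points between combination and anti-CD27 without cells with markers of other types.

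In effector against other CD8 T cells, the 30 higher and 73 lower genes became 52 and 126 with at least 3 effector genes, 6 and 6 without cells with markers of other types (551 genes tested), 11 and 17 against CD8 T cells with no effector gene, 6 and 11 with classes set after thinning, and 3 and 3 without cycling cells (487 genes tested). All of these but the comparison with no effector gene rested on 3 libraries, since the isotype control had too few cells. DESeq2 gave 11 and 32, library totals without factors 57 and 43, and no minimum above 1 UMI 7 and 9. Without the replicate block, which here is the library that both classes share, 71 genes were higher and 92 lower. Leaving out 1 library gave 7 to 40 higher and 11 to 80 lower genes. Reversed values were those of Cenpa (-0.32), S100a4 (-0.228) and Lyz2 (1.83) after thinning, Stfa2l1 (0.347) in DESeq2 and Tcf7 (0.0381) without cycling cells.

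Within effector cells, the 131 and 40 genes past 2-fold between combination and anti-CD20 became 279 and 77 without an upper limit on genes, 275 and 4 with TMM factors and 627 and 266 from 10 UMIs. Between combination and anti-CD27, the 23 and 26 genes became 48 and 53 with a pseudocount of 10 CPM, 83 and 101 from 10 UMIs, and 40 and 55 with the mean over cells. The called genes of effector against other CD8 T cells, named here or not, were followed too, without immunoglobulin, haemoglobin, ribosomal protein and mitochondrial genes. Of those with a fit, 15 kept the call without the combination library and 54 lost it. The numbers were 20 and 51 without anti-CD27, 29 and 20 in DESeq2, and 84 and 1 without the shallower of barcodes 1 base apart. Settings that left under 10 anti-CD20 cells could not be computed for the comparison of combination and anti-CD20 within effector cells. With 1 library per treatment, 10 anti-CD20 and 3 isotype control effector cells, and a median of 1957 UMIs per cell, depth limits what can be said of genes at low level in those libraries.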

Other observations

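T cell receptor beta chains were seen in few cells. A Trbv UMI was found in 13 of 42 effector CD8 T cells of the combination, 4 of 10 of anti-CD20, 16 of 41 of anti-CD27 and none of 3 of the isotype control. These UMIs came from 7 Trbv genes in the combination, 3 in anti-CD20 and 12 in anti-CD27, and the most widespread were Trbv3 in 4 combination cells and Trbv13-2 in 3 anti-CD27 cells.

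Glycolysis genes, which activated T cells use for growth, gave no call in either direction over 7 tested genes in effector against other CD8 T cells, with 6 above 0 and a median of 0.51. Their summed level was 2177 CPM in effector against 1388 CPM in other CD8 T cells of the combination, 2250 against 1163 CPM in anti-CD20, 2896 against 2141 CPM in anti-CD27 and 572 against 1798 CPM in the isotype control. Genes of T cell receptor signaling gave 1 higher and no lower call over 19 tested genes, with a median of -0.07. The higher gene was Sh2d1a, the adaptor SAP (log2 1.89 ± 0.58, edgeR adjusted p = 0.0345).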
